A study of Rattus norvegicus with 11 samples.

Results

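Crabp1, Cd248, Fabp5, Thy1 and Sirpa are 5 rat genes picked because their messenger RNA separates a line labelled as endothelial cells (EC) from RF, a line labelled as endothelial fibroblasts. They are 5 of 11069 named genes left by a filter on dim probes, and all 6 of their probes passed it, the second probe of Sirpa only just (best group mean at the 50.4th percentile of its arrays, against a limit of 50). Each of Crabp1, Cd248, Fabp5 and Thy1 has 1 probe on the array and Sirpa has 2. The genes were chosen by their measured EC and RF levels, so the distance between the lines is described below without a test. Crabp1 and Thy1 reached the upper part of the arrays in EC only, and a gene of that kind passes the filter through the group in which it is high.

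The study placed 11 RNA samples of rat on 1-colour arrays in 9 groups. EC and RF were each measured untreated (control), after treatment with exosomes of AS, a pancreatic adenocarcinoma line, and after exosomes of ASTspan8, the same line with added tetraspanin 8, a protein of vesicle membranes. RNA of ASTspan8 exosomes themselves, wild-type cells of the adenocarcinoma line ASML, and ASML cells with CD44 knocked down completed the set. EC given ASTspan8 exosomes and exosome RNA have 2 arrays each, and each other group has 1. All cultures are described as kept in RPMI medium with foetal serum and G418, a drug that kills cells without a resistance gene, whether treated or not, and no dose or time of exosome treatment is given in the sources used here. The labels speak of endothelial cell lines without saying how many, and RF and EC are called lines below. A difference between them may belong to the cultures rather than to the cell types in their names, and untreated RF has endothelial lines as its labelled source. In each duplicated group 1 array carries the words replicate 1 and the other no number. Nothing says that duplicates came from separate cultures, so p-values measure the spread between these arrays only, which may be technical. In bulk RNA fewer expressing cells and less RNA per cell cannot be told apart.

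The labels of the lines were set against marker genes. Of 16 endothelial markers between 2 and 4 lay above log2 9 on each EC array and between 2 and 4 on each RF array. In both lines these came from Egfl7, Eng, Vwf and Robo4. The tumour samples gave like counts, 3 in ASML wild type, 2 after CD44 knock-down and 2 on each exosome array. The count thus does not set EC apart from RF or from the tumour samples. The defining receptors Kdr and Tek stayed at or below 6.68 on all 7 EC and RF arrays. Cdh5, the cadherin of endothelial junctions, lay between 7.87 and 8.36 in EC and between 7.93 and 7.98 in RF. Of 16 fibroblast markers 14 lay above log2 9 on each EC array and 14 or 15 on each RF array. The names EC and RF are used here as labels, not as cell types. Of 15 leukocyte markers at most 2 lay above log2 9 on any EC or RF array, of 13 neuronal and glial markers 1 (Stmn2, a tubulin-binding protein), of 16 epithelial markers at most 1, and of 8 adipocyte markers 0. These lists matter here since Thy1, Crabp1 and Sirpa are also made by neurons, Sirpa by myeloid cells and Fabp5 by epithelia. No batch is recorded with the values used here.

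Crabp1 and Fabp5 belong to a family of small cytosolic proteins that carry lipids. Crabp1 binds retinoic acid, the active form of vitamin A, and Fabp5 binds fatty acids and is best known from skin. Cd248, also called endosialin, is a surface glycoprotein of stromal cells and of pericytes, the cells that wrap small vessels. Thy1 is a small surface glycoprotein held by a lipid anchor, found on many fibroblasts and on neurons. Sirpa is a receptor with inhibitory motifs in its cytosolic tail that recruit the phosphatases Ptpn6 and Ptpn11, and it binds Cd47 on neighbouring cells.

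Of the 5 genes, 1 matched the RefSeq promoter table of build GRCr8, Crabp1, which with Cd248 and Fabp5 had the wider distances between EC and RF under every condition. Its 250 bases before the annotated start, chr8:64047181-64047430 on the + strand, are shown 5′ to 3′ so that the sequence next to the start of this gene can be read. Capitals mark the core of a GC box (GGGCGG, on either strand) and an AP-1 type site (TGANTCA).
Crabp1: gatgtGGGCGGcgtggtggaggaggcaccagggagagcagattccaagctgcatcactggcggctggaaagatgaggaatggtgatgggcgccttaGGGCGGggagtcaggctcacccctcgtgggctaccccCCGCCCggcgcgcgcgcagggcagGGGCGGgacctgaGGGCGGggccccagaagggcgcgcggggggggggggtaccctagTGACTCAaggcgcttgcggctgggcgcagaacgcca
The GC box core occurs 5 times, beginning 245, 154, 117, 93 and 80 bases before the start, and at least once in 30.5% of 33469 windows of the same length in the table. The AP-1 type letters occur once, 36 bases before the start, and in 6.34% of windows. TATAAA (12.9% of windows), CCAAT (34.0%) and the hexamer bound by retinoic acid receptors, AGGTCA (14.1%), were searched on both strands and have 0 matches here. No searched motif overlaps another. The window holds 21 CpG pairs against a median of 5 over all windows, and 71.6% G and C against a median of 51.2%. These are matches of letters and say nothing of binding. Cd248, Fabp5, Thy1 and Sirpa are named only.

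Crabp1 was bright in EC and dim in RF. In EC its log2 intensity was 12.15 in control, 12.13 after AS exosomes, and 12.50 (replicate 1) and 12.55 after ASTspan8 exosomes. In RF it was 6.38 in control, 6.47 with AS exosomes and 6.26 with ASTspan8 exosomes, below the median of every array, which lay between log2 7.29 and 7.37. The 2 sets are separated by 5.66 log2 at their nearest points. Outside the 2 lines the probe was also dim, at 6.03 (replicate 1) and 6.15 in exosome RNA, 6.17 in ASML wild type and 6.11 after CD44 knock-down.

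Cd248 followed the same line split. Its levels in EC were 13.11 in control, 12.38 after AS exosomes, and 12.97 (replicate 1) and 12.89 after ASTspan8 exosomes. RF gave 6.75 in control, 6.63 with AS exosomes and 7.49 with ASTspan8 exosomes, the last of which alone lay above the array medians. Exosome RNA gave 7.63 (replicate 1) and 7.95, ASML wild type 7.10 and ASML with CD44 knock-down 6.60, so every array outside EC lay below every EC array.

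Fabp5 was high in EC and higher still in the tumour samples. It stood in EC at 12.21 in control, 11.20 after AS exosomes, and 12.90 (replicate 1) and 12.86 after ASTspan8 exosomes. RF stood at 6.70 in control, 6.07 with AS exosomes and 6.37 with ASTspan8 exosomes. Exosome RNA reached 15.26 (replicate 1) and 15.27, ASML wild type 14.65 and ASML with CD44 knock-down 14.66. RF is thus the only one of the measured sources in which the probe lay below the array medians. Both treated RF arrays lay below the RF control, and exosome RNA was the brightest source.

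Thy1 gave a smaller step at a lower level. EC values were 9.09 in control, 8.88 after AS exosomes, and 9.24 (replicate 1) and 9.29 after ASTspan8 exosomes. RF values were 6.32 in control, 6.27 with AS exosomes and 6.32 with ASTspan8 exosomes, a range of 0.05 log2. Exosome RNA gave 6.80 (replicate 1) and 6.35, ASML wild type 6.67 and ASML with CD44 knock-down 6.08. Only EC arrays lay above the array medians.

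Sirpa ran the other way. On its brighter probe EC gave 7.90 in control, 8.14 after AS exosomes, and 9.01 (replicate 1) and 8.94 after ASTspan8 exosomes. RF gave 10.98 in control, 11.34 with AS exosomes and 11.55 with ASTspan8 exosomes, all above every EC array. ASML was as bright as RF, at 11.57 in wild type and 11.30 after CD44 knock-down, while exosome RNA was dim and unlike between its arrays, at 7.35 (replicate 1) and 6.14. The second Sirpa probe was dim everywhere, between 6.71 and 6.90 in EC, between 7.06 and 7.37 in RF and at 7.30 in ASML wild type, and in exosome RNA again differed between 8.09 (replicate 1) and 6.71. It repeats the order of RF above EC with a gap of 0.16 log2 and does not show the step of the brighter probe.

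**Figure D1:**
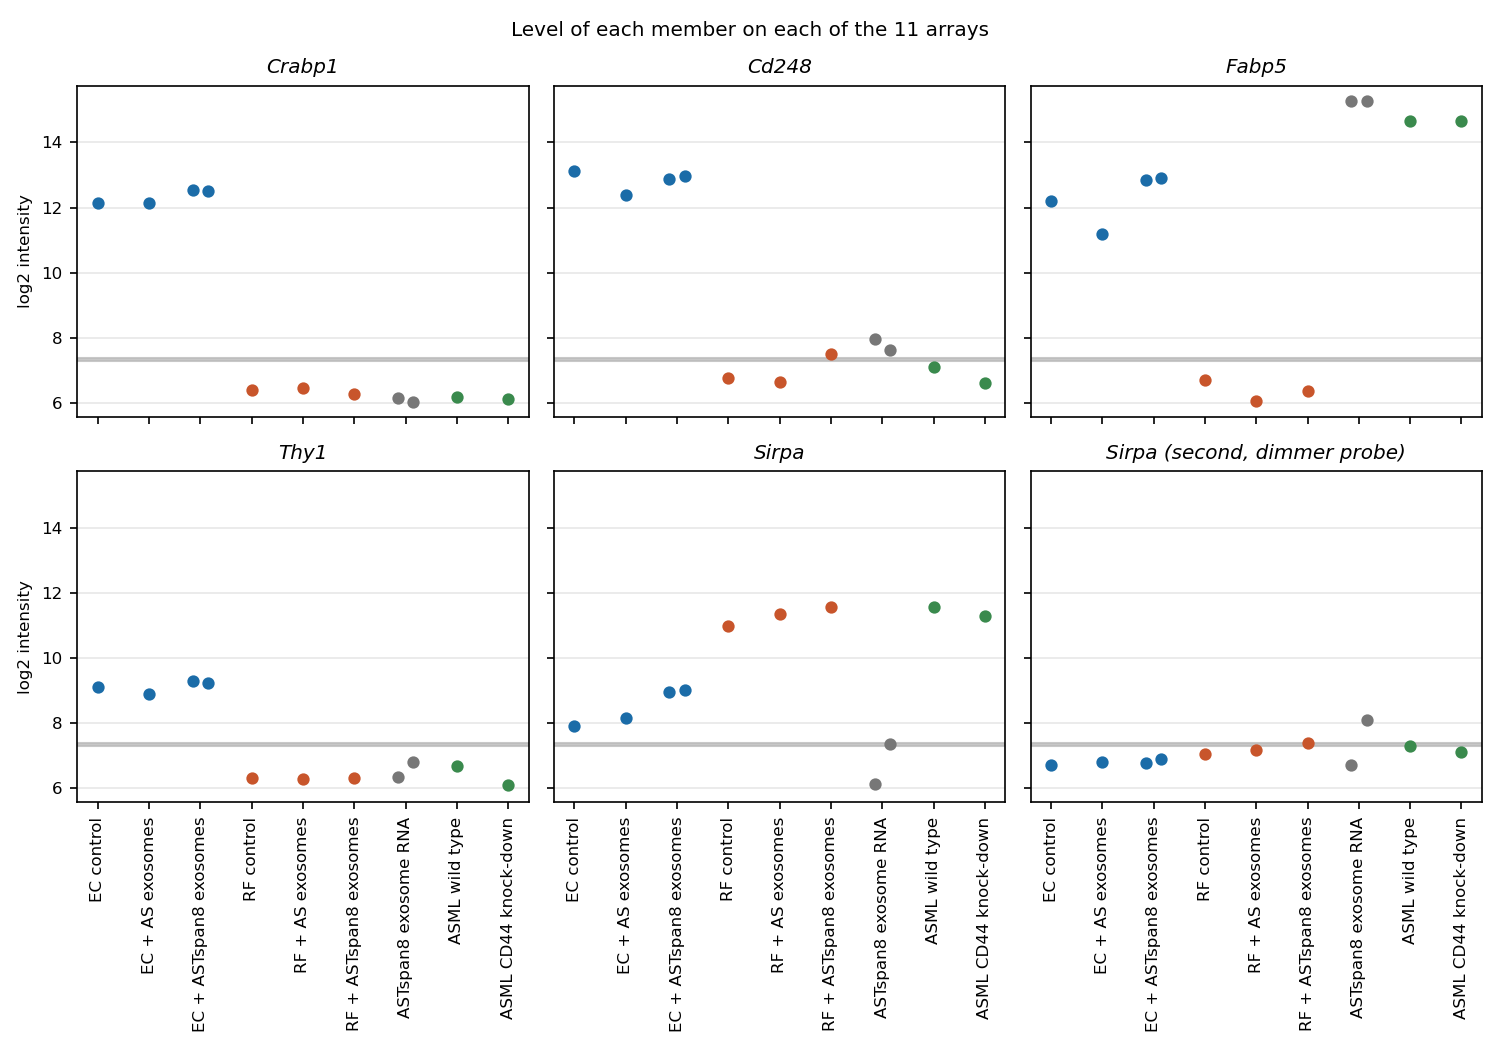
Log2 intensity (y axis) of the 6 probes of the 5 genes on each of the 11 arrays, by group (x axis). Each point is 1 array, paired points are duplicates, and the grey band spans the medians of the arrays. Crabp1, Cd248 and Thy1 stand out in EC only, Fabp5 is low in RF only, and the brighter Sirpa probe is high in RF and ASML.

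The distance between the lines was averaged over the 3 matched conditions (untreated and both exosome treatments, with the duplicates averaged first). EC exceeded RF by 5.90 ± 0.32 log2 for Crabp1 (SD, n = 3 conditions), by 5.85 ± 0.47 for Cd248, by 5.72 ± 0.71 for Fabp5 and by 2.78 ± 0.17 for Thy1. Sirpa was -2.95 ± 0.33 on the brighter probe and -0.41 ± 0.11 on the dimmer. These SDs are over conditions, not over repeats of a condition. No detection calls were used, so it is not known whether the dim RF values of Crabp1, Fabp5 and Thy1 lie above background, and no fold is given. Cd248 had the widest distance in control and after AS exosomes, and Fabp5 after ASTspan8 exosomes.

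All 6 probes had EC and RF arrays that did not overlap, which also holds for 24.9% of all 18619 probes (10.7% with EC above RF and 14.2% with EC below). A mean distance of at least 2-fold was found for 5 of the 6 probes and for 4.37% of all probes. Both counts follow from how the genes were chosen. Among 20 genes whose brightest probe was at least 4-fold apart and that had a further probe past the filter, the further probe was at least 2-fold apart in the same direction for 12 and was not for 8. Such a check within the array exists for Sirpa alone among the 5, and there the second probe was among those that did not follow.

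**Figure D2:**
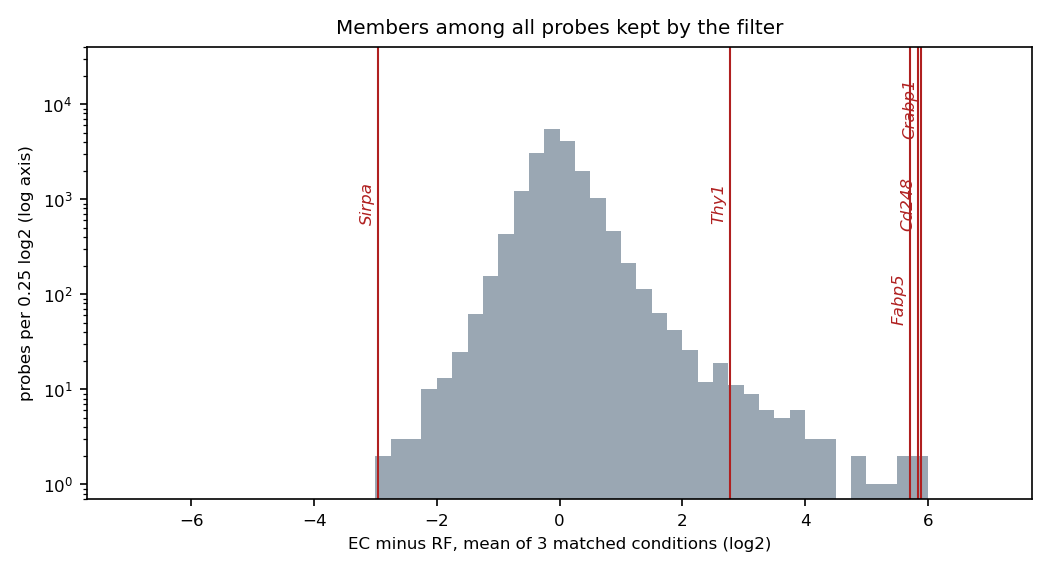
Number of probes (log y axis) by their EC minus RF distance in log2, the mean of 3 matched conditions (x axis, bins of 0.25), over 18619 probes. Red lines mark the brightest probe of each of the 5 genes. Crabp1, Cd248 and Fabp5 lie at the far right edge near 5.9, Thy1 at 2.78, and Sirpa at -2.95 near the left edge.

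The distance was not the same under each condition. For Crabp1 it was 5.77 in control, 5.66 with AS exosomes and 6.26 with ASTspan8 exosomes, and for Fabp5 5.51, 5.13 and 6.51. For Cd248 it shrank, from 6.36 in control to 5.75 with AS exosomes and 5.44 with ASTspan8 exosomes. Thy1 stayed between 2.61 and 2.94, and the brighter Sirpa probe between -3.20 and -2.58.

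Whether ASTspan8 exosomes moved the 2 lines apart or together was tested as a difference of effects, with limma on all 11 arrays and Benjamini-Hochberg adjustment over 18619 probes. The genes were chosen by their EC and RF levels and not by this contrast. The contrast is built from the same arrays, however, so the test is not independent of the choice. Of the 6 probes 1 passed, against 31.5% of all probes. It was Fabp5, whose effect in EC exceeded that in RF by 1.00 ± 0.10 log2 (SE, adjusted p = 0.0119). Among fibroblast markers 10 of 15 had a higher effect in EC and 0 a lower one, where 33.7% of all genes passed in either direction. The summed intensity of the list was 970958 in RF control, 741150 with AS exosomes and 419381 with ASTspan8 exosomes, against 883425 to 967384 in EC. Each RF value is 1 array. A few bright probes carry the sum (in RF control S100a4 at 18.04, Col1a2 at 17.4 and Sparc at 17.2). The part of these markers in the results on the 5 genes was not tested. The Fabp5 value combined 0.67 in EC with -0.33 in RF, where all 3 values lay below the array medians. Crabp1 (0.49 ± 0.13, adjusted p = 0.0649) and Cd248 (-0.92 ± 0.25, adjusted p = 0.0640) did not pass, nor did Thy1 (0.18 ± 0.33, adjusted p = 0.737) or the Sirpa probes (0.50 ± 0.83, adjusted p = 0.702, and -0.19 ± 0.95, adjusted p = 0.912). When either of the duplicate EC arrays was dropped, Fabp5 had 0.98 and 1.02 log2 and no longer passed (adjusted p = 0.113 for both). Without either exosome array, Crabp1 (adjusted p = 0.0487) and Cd248 (adjusted p = 0.0347) passed.

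In EC, 1 of the 6 probes passed between ASTspan8 exosomes and control, where 24.1% of all probes passed in either direction. Fabp5 was 0.67 ± 0.07 log2 higher after ASTspan8 exosomes (n = 2 against 1, adjusted p = 0.0189 by limma), both treated arrays lying above control. In the RNA of these exosomes Fabp5 stood at 15.26 (replicate 1) and 15.27. The cause of the difference in EC was not tested. Crabp1 differed by 0.38 ± 0.09 (adjusted p = 0.0562), Thy1 by 0.18 ± 0.21 (adjusted p = 0.609) and Cd248 by -0.18 ± 0.16 (adjusted p = 0.482). The brighter Sirpa probe had the largest difference, 1.08 ± 0.55 (adjusted p = 0.240), with both treated arrays within 0.07 log2 of each other. Its exosome pair, 1.21 log2 apart, enters the spread of this fit. When the 4 EC arrays alone were fitted, Sirpa (adjusted p = 0.0418) and Crabp1 (adjusted p = 0.0498) passed along with Fabp5 (adjusted p = 0.0418). When either of the duplicate EC arrays was dropped, Fabp5 did not pass (adjusted p = 0.193 without replicate 1 and 0.191 without the other), and 0 of all probes did. The control was a single array.

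Against AS exosomes in EC, 1 of the 6 probes passed where 14.9% of all probes did. Fabp5 was 1.68 ± 0.07 log2 higher after ASTspan8 exosomes (n = 2 against 1, adjusted p = 0.0230 by limma). The AS array contributed most of it, since Fabp5 was at 11.20 there and at 12.21 in control. Cd248 was also lowest on that array, and its difference of 0.55 ± 0.16 did not pass (adjusted p = 0.102). Crabp1 (0.40 ± 0.09, adjusted p = 0.0635), Thy1 (0.38 ± 0.21, adjusted p = 0.287) and the brighter Sirpa probe (0.84 ± 0.55, adjusted p = 0.360) did not pass either. The Fabp5 call was lost with no filter on dim probes (adjusted p = 0.0528), with the 4 EC arrays alone or without either exosome array (adjusted p = 0.0542 each), and without either EC array after ASTspan8 exosomes (adjusted p = 0.247 and 0.252). This comparison shares its 2 ASTspan8 arrays with the one against control.

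AS exosomes were measured on 1 array a line and have no test within a line. In EC, Fabp5 was -1.01 log2 against control, the only one of the 6 probes at least 2-fold apart, against 1.12% of all probes. Cd248 gave -0.73, Thy1 -0.21, Crabp1 -0.02 and the brighter Sirpa probe 0.24. In RF, Fabp5 gave -0.63, Cd248 -0.12, Thy1 -0.05, Crabp1 0.09 and Sirpa 0.36, with 0 of the 6 probes at least 2-fold apart against 2.16% of all probes. In a fit of cell line and treatment over the 7 EC and RF arrays, AS exosomes against control gave -0.82 ± 0.35 log2 for Fabp5 (adjusted p = 0.999 by limma) and -0.42 ± 0.24 for Cd248 (adjusted p = 0.999). In that fit 0% of all probes passed, 0 in number, while 669 had an unadjusted p under 0.05.

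ASTspan8 exosomes in RF were likewise on 1 array. Cd248 was 0.74 log2 above control and 0.86 above the AS array, Sirpa 0.57 and 0.21, Fabp5 -0.33 and 0.30, Crabp1 -0.12 and -0.21, and Thy1 0.00 and 0.05. Of the 6 probes 0 were at least 2-fold apart from control, against 9.17% of all probes, and 0 from AS, against 9.87%. Over both lines ASTspan8 exosomes gave 0.88 ± 0.18 log2 for the brighter Sirpa probe (unadjusted p = 0.00344, adjusted p = 0.200 by limma), which was higher on each of the 3 treated arrays than on its own control. In that fit 1 of 18619 probes passed (0.00537%), and it was none of the 6.

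**Figure D3:**
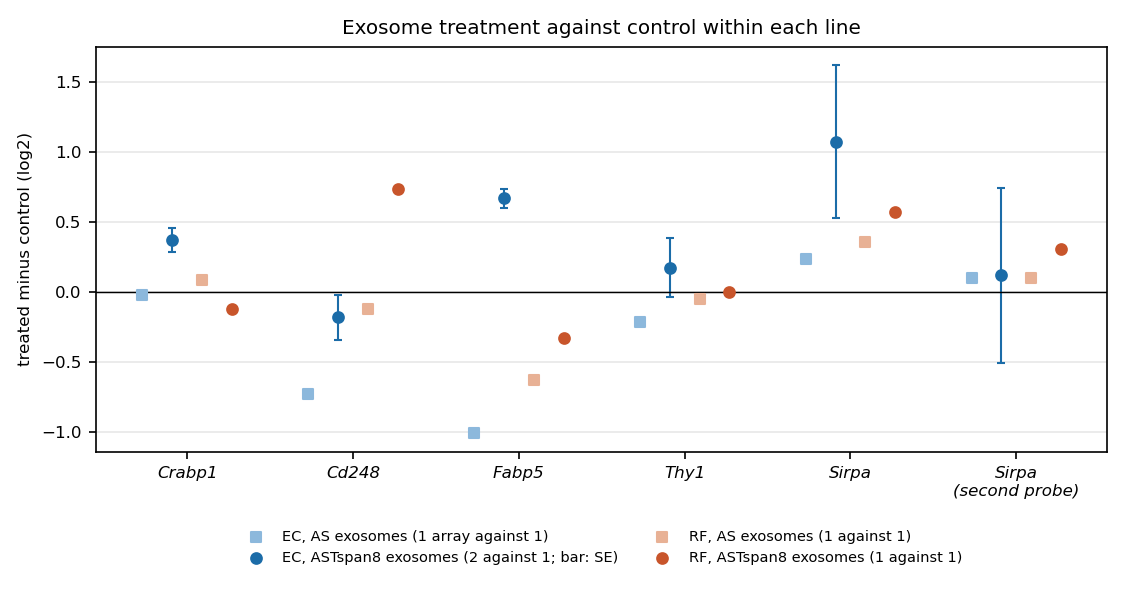
Treated minus control in log2 (y axis) for each probe, for AS exosomes (squares) and ASTspan8 exosomes (circles) in EC (blue) and RF (orange). Bars are the SE of the fit for the duplicated EC group, and the other points are 1 array against 1. Fabp5 is at 0.67 after ASTspan8 exosomes in EC and at -1.01 after AS exosomes, and Cd248 is at 0.74 after ASTspan8 exosomes in RF and at -0.18 in EC.

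In the tumour samples the 5 genes did not keep together. Exosome RNA was set against ASML wild type, though the exosomes come from AS and not from ASML, so line and vesicle cannot be told apart. There 3 of the 6 probes passed, against 65.6% of all probes. Sirpa was lower by -4.83 ± 0.55 log2 on the brighter probe (n = 2 against 1, adjusted p = 0.00348 by limma), Fabp5 was higher by 0.62 ± 0.07 (adjusted p = 0.00325) and Cd248 by 0.69 ± 0.16 (adjusted p = 0.0255). The Cd248 call was lost without either EC array after ASTspan8 exosomes (adjusted p = 0.103), and the levels are near the array medians. Crabp1 (-0.08 ± 0.09, adjusted p = 0.465) and Thy1 (-0.10 ± 0.21, adjusted p = 0.715) did not pass and were dim in both. The dimmer Sirpa probe gave 0.10 ± 0.62 (adjusted p = 0.897), unlike the brighter one. The exosome duplicates had 358 probes at least 2-fold apart, the EC duplicates 9. After CD44 knock-down in ASML, on 1 array against 1, Thy1 differed by -0.59, Cd248 by -0.50, Sirpa by -0.27, Crabp1 by -0.06 and Fabp5 by 0.01, none of them 2-fold apart, against 19.1% of all probes.

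The order of the 9 groups was read for each gene, and each step was set beside the larger gap within the 2 duplicate pairs of the same probe. Most groups are single arrays and the duplicates may be technical, so a step beyond that gap is a description only. For Crabp1 the order began with EC after ASTspan8 exosomes, then EC control and EC after AS exosomes, which did not differ by more than that gap (0.12 log2), and then the 6 other groups, no neighbours of which did. Cd248 began with EC control and EC after ASTspan8 exosomes (not apart beyond 0.32), then EC after AS exosomes, then exosome RNA and the remaining groups between 7.79 and 6.60. Fabp5 ran from exosome RNA over both ASML samples, EC after ASTspan8 exosomes, EC control and EC after AS exosomes to RF, and each step but that between the ASML samples exceeded its gap of 0.04, including the steps among the dim RF values. For Thy1 the only step beyond its gap of 0.45 was that of 2.21 between EC and the rest. For the brighter Sirpa probe the only one beyond 1.21 was the step of 2.01 from ASML and RF down to EC.

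Patterns were compared by the root mean square difference between centred log2 means over the 9 groups, where 0 is an identical pattern. Crabp1 and Cd248 were each other's nearest among 11069 genes, at 0.49 log2. Both were chosen for a wide distance between EC and RF, and that distance enters this measure. Their nearness therefore follows in part from the choice and is a description only. After them came Il1r2, a decoy receptor for interleukin-1 (0.85 from Crabp1 and 0.72 from Cd248), and Agtr1a, an angiotensin II receptor (0.88 and 0.99). Il1r2 stood at 12.31 in EC control and 7.05 in RF control, and Agtr1a at 12.05 and 8.37. Thy1 was 1.58 from Crabp1, with 17 genes nearer to Crabp1, since its step between the lines is smaller.

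Nearest to Thy1 were Ebpl (0.21), Ndn, or necdin, a growth suppressor (0.24), and Spon2, a matrix protein (0.27), which all lay between 8.51 and 9.69 in EC and between 6.10 and 6.63 in RF by group mean. Fabp5 had no near neighbour. The nearest were Mfsd6 (1.27), Nppb, a natriuretic peptide (1.36), and Pard3, a polarity protein (1.47), with EC levels from 8.82 to 11.88, RF levels from 6.10 to 7.28 and exosome levels from 11.65 to 13.30. Nearest to the brighter Sirpa probe were Dock8, an activator of the GTPase Cdc42 (0.67), Spry1, a brake on growth factor signalling (0.96), and Elavl2, an RNA-binding protein (0.98). These likenesses describe 11 arrays of few lines, and the 3 EC groups, like the 3 RF groups, share a line.

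**Figure D4:**
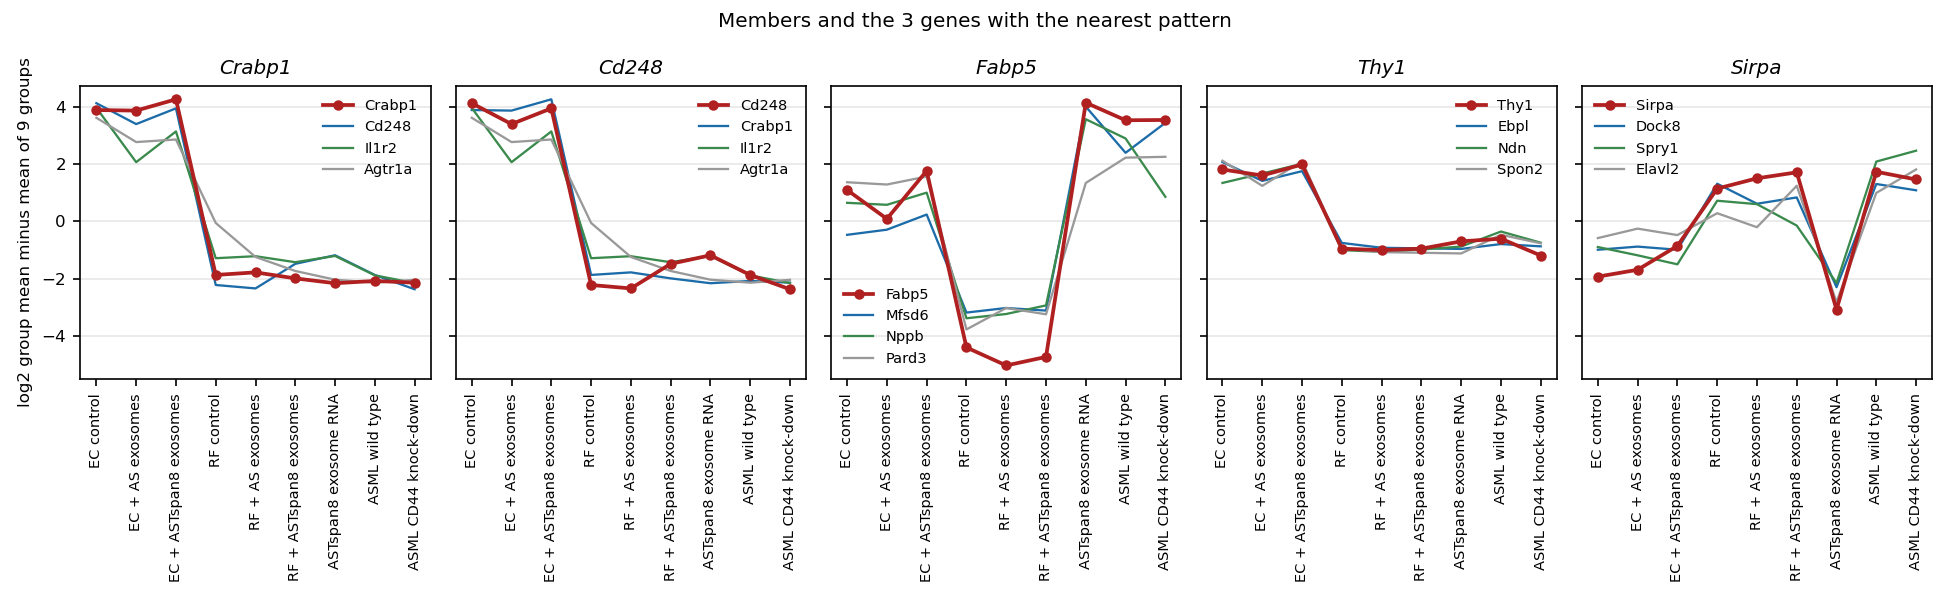
Log2 group means after subtracting the mean over the 9 groups (y axis), by group (x axis), for each of the 5 genes (red, with points) and the 3 genes with the smallest root mean square difference from it. Crabp1 and Cd248 nearly coincide (0.49 log2), the Thy1 set lies within 0.27, and the neighbours of Fabp5 are at 1.27 to 1.47 and do not fall as low in RF. The nearness of Crabp1 and Cd248 follows in part from their choice by the distance between the lines.

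Genes that work with the 5 were set beside them. Of 14 retinoid genes past the filter, of 22 on the array, 1 was at least 2-fold higher in EC and 0 in RF, against 3.09% and 1.57% of all genes. The exception was Cyp26b1, which breaks down retinoic acid, at 1.70 log2 (9.28 to 9.53 in EC and 7.23 to 8.56 in RF). Its relative Cyp26a1 was at 0.98, and Dhrs3, a retinal reductase, at 0.82, with EC and RF arrays apart for both. Crabp2, the paralog of Crabp1, differed by -0.22, with 8.84 to 9.32 in EC and 9.04 to 9.77 in RF. The distance of Crabp2 turned from -0.38 in control to 0.25 after AS exosomes. The receptors Rara (-0.05) and Rarg (0.11 on the brighter and -0.16 on the dimmer probe) overlapped between the lines, and Aldh1a2, which makes retinoic acid, stayed between 6.0 and 6.16 on all 7 arrays. The median over the list was 0.03 log2, that over all genes -0.04.

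After ASTspan8 exosomes in EC 4 of the 14 retinoid genes rose against control and 0 fell (list median 0.35, all genes 0.01), where 26.1% of all genes passed in either direction. They were the receptor Rara (1.01 ± 0.09 log2, adjusted p = 0.0177 by limma), its partner Rxrb (0.71), the retinol dehydrogenase Rdh11 (0.41) and the nuclear receptor Nr2f2 (1.05). Crabp2, at 0.41 ± 0.09, did not pass (adjusted p = 0.0515). The difference between EC and RF in this effect was higher in EC for 6 of the 14 and lower for 1, with 33.7% of all genes passing in either direction.

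None of the 16 fatty acid genes past the filter, of 25 on the array, was 2-fold apart between the lines (median -0.06), where 3.09% of all genes were higher in EC and 1.57% in RF. Fabp3, the heart-type paralog of Fabp5, was at -0.54 log2 with overlapping arrays, and Fabp4, the adipocyte-type paralog, stayed between 5.96 and 6.33. Ppard, a nuclear receptor to which Fabp5 is known to bring fatty acids, was at -0.29 on the brighter of its 2 probes, Pparg at 0.29, the fatty acid receptor Cd36 at -0.04, Acsl1, which activates fatty acids, at -0.44 and the transporter Slc27a1 at 0.48. For Fabp3, Ppard, Cd36, Acsl1 and Slc27a1 the sign of the distance differed between conditions. In EC after ASTspan8 exosomes 4 of the 16 rose and 3 fell against control, where 26.1% of all genes passed in either direction. The transporters Slc27a4 (0.60), Slc27a3 (0.85) and Slc27a1 (0.43) and the mitochondrial carnitine transferase Cpt1a (0.77) rose, and the ligases Acsl4 (-0.95), Acsl3 (-0.68) and Acsl5 (-0.50) fell. Against AS exosomes 3 were higher and 4 lower, and 5 of the 14 retinoid genes were higher and 0 lower, where 16.3% of all genes passed.

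Relatives and ligands of endosialin did not share its pattern as a group. Clec14a (6.18 to 6.58) and Cd93 (6.40 to 6.49), C-type lectin relatives made by endothelium, were dim in EC. Thbd, or thrombomodulin, a relative that curbs clotting, was higher in EC by 1.12 log2 on its brighter probe and 0.48 on the dimmer, and Col1a1, a collagen ligand, by 2.38 and 2.34 on its 2 probes. On the brighter one Col1a1 was 1.70 apart in control and 4.26 after ASTspan8 exosomes, and 1.44 without that condition. Fn1, or fibronectin, differed by -0.35 on its brighter probe and -0.70 on the dimmer. Of the 5 genes of this list past the filter, of 7 on the array, 2 were at least 2-fold higher in EC and 0 in RF (median -0.21). Of all genes 3.09% and 1.57% were. The collagen ligand Col4a1 fell just short of 2-fold, at -0.998. Each of its RF arrays (11.02 to 11.4) lay above each EC array (9.81 to 10.76). In EC after ASTspan8 exosomes 2 of the 5 rose against control, Col4a1 (0.92) and Lgals3bp (0.70), and 0 fell. Against AS exosomes 3 were higher. Of all genes 26.1% passed against control and 16.3% against AS exosomes, in either direction.

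Markers of mural cells, the pericytes and smooth muscle of vessels where Cd248 is known, split between the lines. Of 11 past the filter, of 14 on the array, 1 was at least 2-fold higher in EC and 2 in RF (median -0.16). Of all genes 3.09% were higher in EC and 1.57% in RF. Anpep, a surface peptidase, was 3.49 log2 higher in EC (11.05 to 12.0 against 7.44 to 8.90), while the smooth muscle actin Acta2 was at -2.61 (10.26 to 11.53 against 13.43 to 13.52). Pdgfrb, a receptor that is also on the fibroblast list, was bright in both lines (-0.48). Cspg4 was near the array medians (0.51), and Rgs5 stayed between 6.04 and 6.26. The summed intensity of the list ran from 15185 to 23379 on the EC arrays and from 35877 to 42381 on the RF arrays. A few bright probes carry that sum (in RF control Tagln at 14.14, Acta2 at 13.52 and Pdgfrb at 13.23), and Tagln, a smooth muscle protein, was at -1.65. In EC after ASTspan8 exosomes 1 of the 11 rose against control (Tbx18, a transcription factor, 0.39) and 0 fell. Acta2 (1.26) and Anpep (0.93) were higher than after AS exosomes. Of all genes 26.1% passed against control and 16.3% against AS exosomes, in either direction.

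Of 12 mesenchymal stromal genes past the filter, of 14 on the array, 2 were at least 2-fold higher in EC and 1 in RF (median 0.21), against 3.09% and 1.57% of all genes. The integrin subunit Itgb1 was 5.42 log2 higher in EC on the brighter of its probes (12.16 to 12.78 against 6.50 to 7.70) and 4.33 on the other. The adhesion protein Alcam was at -1.69. In EC after ASTspan8 exosomes 5 of the 12 rose and 2 fell against control, where 26.1% of all genes passed in either direction.

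Partners of Thy1 and Sirpa were counted in the same way. Of 9 Thy-1 partners past the filter, of 13 on the array, 0 were at least 2-fold apart (median -0.04), against 3.09% of all genes higher in EC and 1.57% in RF. The largest distances were those of Cav1, the caveolae protein (0.74), and the integrin subunit Itgb5 (0.67 and 0.76 on its 2 probes). In control the distances were 0.11 for Cav1 and 0.02 for the brighter Itgb5 probe. Without the ASTspan8 condition, where RF had 1 array, at 14.17 and 12.09, they were 0.39 and 0.15. Itgb3, part of an integrin that binds Thy1, was dim in both lines (6.26 to 6.54 in EC and 6.14 to 6.16 in RF), and the proteoglycan Sdc4, which binds Thy1 together with that integrin, was at -0.10 on its brighter probe and -0.54 on the other. Of 7 Sirpa partners, of 10 on the array, 0 were 2-fold apart (median -0.19). Cd47, the ligand of Sirpa, was bright in both lines, between 13.37 and 13.89 in EC and 13.59 and 14.26 in RF, and gave -0.21. The phosphatases Ptpn11 (-0.19) and Ptpn6 (-0.20) overlapped between the lines, and the adaptors Skap2 (0.30) and Grb2 (-0.25, with 0.12 on its other probe) were the farthest from 0. Of these, Sdc4, Cd47, Ptpn11 and Ptpn6 changed sign between conditions, and Skap2 was 0.03 in control. In EC after ASTspan8 exosomes Sdc4 (-0.57), Cav1 (-0.46) and Skap2 (-0.38) fell against control and 0 of both lists rose. Cav1 (-0.58), Cd47 (-0.51) and Skap2 (-0.39) were lower than after AS exosomes. Of all genes 26.1% passed against control and 16.3% against AS exosomes, in either direction.

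**Figure D5:**
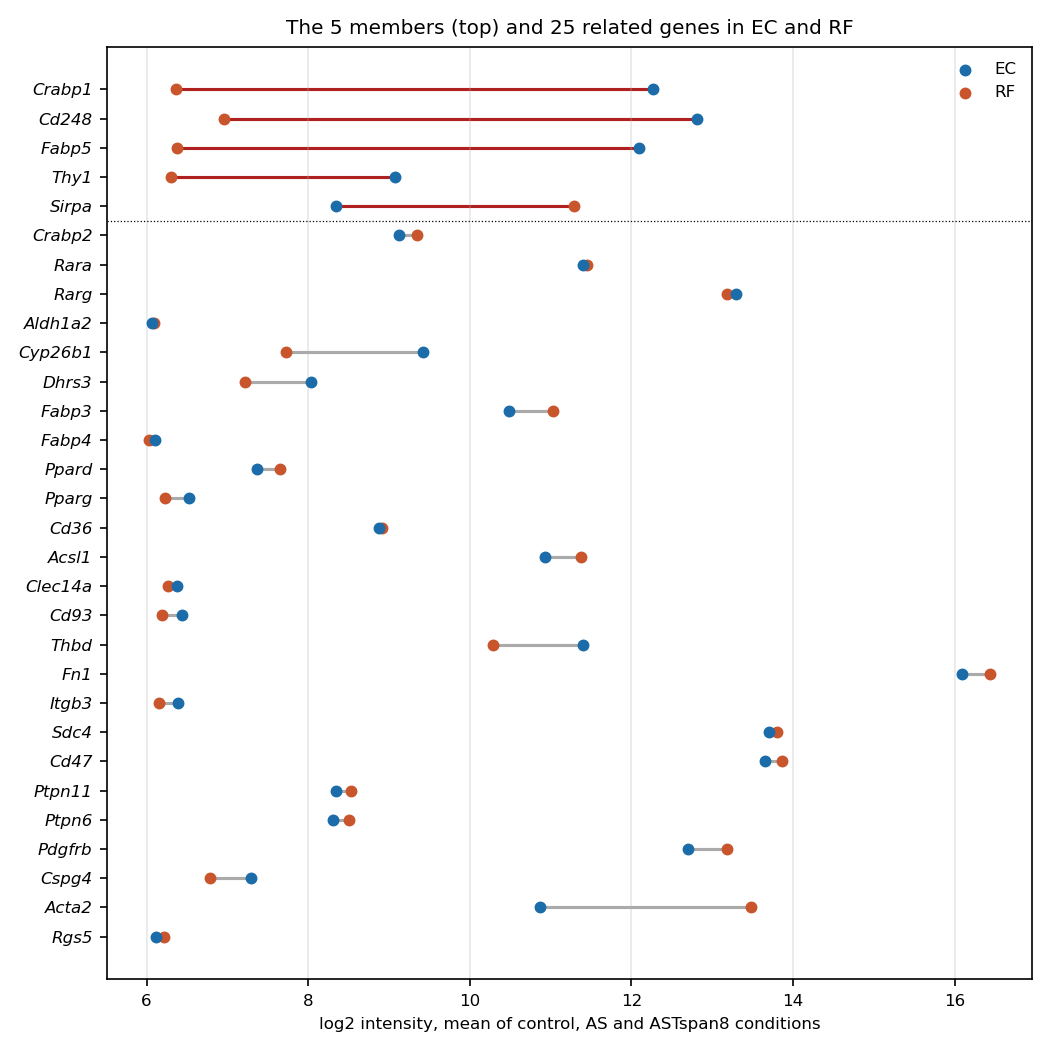
Log2 intensity (x axis) of the 5 genes (top, red lines) and 25 related genes (grey lines) in EC (blue) and RF (orange), each point the mean of 3 conditions on the gene's brightest probe. Lines join the values of 1 gene, and levels of different genes are not comparable. The 5 genes and, among the others, Acta2 (-2.61), Cyp26b1 (1.70) and Thbd (1.12) have long lines.

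In the remaining marker lists the largest distances between EC and RF were those of Col1a1, given above, and Postn (-2.09), a matrix protein, among fibroblast genes, Stmn2 (1.21, with 1.77 on its other probe) and Tubb3 (1.05) among neuronal genes, Eng (0.75) and Pecam1 (0.60) among endothelial genes, Tjp3 (-0.84) and Krt18 (0.71) among epithelial genes, Coro1a (0.71) and Itgam (-0.66, with -0.01 on a dim probe) among leukocyte genes, and Pparg among adipocyte genes. Tjp3 rested on the RF array after ASTspan8 exosomes, at 8.97, and was at -0.13 without that condition. Of all genes 3.09% were at least 2-fold higher in EC and 1.57% in RF. At least 2-fold higher in EC were 4 of 15 fibroblast genes past the filter, with 1 higher in RF, and 2 of 6 neuronal genes with 0. The 4 were Col1a1, Col3a1, Dcn and Lum. In control Col3a1 was at -1.08, Dcn at 0.32 and Lum at 0.27, and without the ASTspan8 condition Col3a1 was at 0.12 and Lum at 1.18. The counts were 0 both ways for 9 endothelial, 16 epithelial, 8 leukocyte and 1 adipocyte genes.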

How the data were processed

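Trizol extraction, a column clean-up with DNase and the dye Cy3 are given per the labels. The authors deposited linear intensity values that had been normalized by a method not given in the sources used here. Array medians lie within 0.08 log2. Intensities under the 1st percentile (log2 5.96) were raised to it (0.82% of values) before taking log2. Probes with a mean within-array percentile above 50 in at least 1 of 9 groups were kept, 18619 of 30367. Symbols were updated through RefSeq (GRCr8). 20369 probes had a symbol: 17237 matched by accession, 2569 by symbol and 551 by synonym, and 12 kept the old one. List genes are represented by their brightest kept probe. Fits used limma 3.58.1 in R 4.3.3 (lmFit, eBayes), two-sided, with Benjamini-Hochberg adjustment at 0.05: 9 group means over 11 arrays, or cell line plus treatment over the 7 EC and RF arrays. A group with 1 array is taken to have the spread of the 2 groups with duplicates. The fit was tested on simulated data.

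The 5 genes and the gene lists were chosen with earlier results of these data known. The naming rule took all 5 genes, the 3 nearest patterns of each, a set of their partners (3 of them not reported here) and the 2 farthest genes of each list.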

Additional observations from a re-analysis of the deposited data

Results flagged for a closer look

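The effect of ASTspan8 exosomes on Fabp5 differed between EC and RF by 1.00 log2 in the fit of that difference (adjusted p = 0.0119 by limma). The contrast is built from the same arrays by which Fabp5 was chosen, so the test is not independent of the choice. The call was lost without either of the duplicate EC arrays (adjusted p = 0.113), and the RF values, 6.37 and 6.70, lie below the array medians and are not known to be above background. For Crabp1 the signs were opposite in the lines. ASTspan8 against AS exosomes gave 0.40 in EC and -0.21 in RF (a difference of 0.60). AS exosomes against control gave -0.02 and 0.09 (a difference of -0.11). The value of 0.40 in EC did not itself pass (adjusted p = 0.0635 by limma). Crabp1 in RF, between 6.26 and 6.47, also lies below the array medians and is not known to be above background. These differences of Crabp1 rest on 1 RF array each and were not tested. The second is smaller than the gap of 0.12 log2 within the exosome pair of the same probe. No group has 4 or more arrays, so no array was examined as an outlier.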

How the results depend on the processing

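No paired analysis of cultures was run, as most groups are single arrays and the sample titles pair no arrays between groups. Of 312 single-probe values of the 5 genes under the alternatives tried, 275 kept direction and side of the threshold, 21 gained a call, 12 lost one and 4 changed sign. These values are not all separate. For the EC comparisons, leaving out either exosome array and fitting the 4 EC arrays alone gave identical results and were counted each time. Leaving out either EC array after ASTspan8 exosomes ended every call over all probes in 4 comparisons, each falling to 0: in EC against control (from 4492, with 4381 to 4434 unadjusted), in EC against AS exosomes (from 2778, 3538 to 3543 unadjusted), for the difference between lines (from 5866, 5624 to 5658 unadjusted) and over both lines (from 1, 1440 to 1444 unadjusted). Fewer arrays enter there. Without either exosome array, or with the 4 EC arrays alone, EC against AS exosomes also fell to 0 (8294 unadjusted), while the count against control was 4732 and that for the difference between lines 6666. With no filter the 4 counts were 1236, 0 (6265 unadjusted), 3404 and 0 (3900 unadjusted). A filter at the 75th percentile gave 4710 for EC against AS exosomes, where Crabp1 (adjusted p = 0.0183) and Cd248 (adjusted p = 0.0448) then passed. limma with trend and robust gave 6800 against control and 5851 against AS exosomes, and quantile normalization 0 over both lines (2866 unadjusted). The cause was not tested. The EC minus RF level of Cd248 was 6.36 on control arrays alone, and that of Sirpa -0.41 on its other probe. Signs turned for the dimmer Sirpa probe in EC against AS exosomes without replicate 1 (-0.05, and 0.09 without the other) and in exosome RNA against ASML without exosome replicate 1 (-0.59, adjusted p = 0.0393 by limma, and 0.79 without the other), and for Thy1 in the latter comparison without the exosome array that has no number (0.13, and -0.32 without replicate 1) or against the mean of both ASML arrays (0.20). Precision is limited by how few arrays there are, and without detection calls it is not known whether the dim values lie above background.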
